A study of Mus musculus with 7 samples.

Results

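The region around Nanog was captured by 5C (chromosome conformation capture carbon copy), which counts how often pairs of HindIII restriction fragments are ligated to each other after fixation. All pairs that the deposited table places in the region named Nanog-V2 were taken, which made 7209 of 86767 pairs. They join each of 89 fragments read by a forward primer with each of 81 fragments read by a reverse primer, 170 fragments in all, over 1134 kb. Neural progenitor cells (NPCs) and the mouse embryonic stem (ES) cells they came from were compared, with 2 libraries of each. The NPCs had been made from V6.5 ES cells through 4 days as embryoid bodies in the absence of LIF, then 5 to 7 days in the serum-free medium ITSFn, which selects adherent progenitors, and finally 2 to 4 days of growth with Fgf2. The ES cells were V6.5 cells grown with LIF on feeder cells and then passaged on gelatin. Both groups were fixed in 1% formaldehyde and share 1 male line of 129SvJae and C57BL/6 background, so that no second line stands behind either cell type. The labels number the libraries but name no separate cultures, and p-values therefore measure a spread that may be technical. Contact counts carry no expression, so the labelled cell types were not checked against marker genes.

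Nanog encodes a homeodomain transcription factor that, with Oct4 and Sox2, sustains the pluripotent state, and it is switched off when ES cells become neural progenitors. In the RefSeq gene order its neighbours on one side are Dppa3, a maternal and germline factor, Gdf3, a TGF-beta family ligand of pluripotent cells, and Apobec1, an RNA-editing cytidine deaminase. On the other side lie Slc2a3, a glucose transporter, and Foxj2, a forkhead transcription factor. Along chromosomes, contacts become rarer with distance and are more frequent within domains than across the boundaries between them, and single pairs of distant fragments that are ligated far above this background are read as loops.

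A HindIII site lies inside an annotated Nanog promoter, which is why its sequence is shown. The 2 fragments that meet at this site each hold a part of that promoter. The bases directly before the annotated start of Nanog are given from RefSeq on GRCm38.p6, chr6:122707239-122707488, plus strand, with the HindIII recognition site AAGCTT, which reads the same on both strands, in capitals.
Nanog: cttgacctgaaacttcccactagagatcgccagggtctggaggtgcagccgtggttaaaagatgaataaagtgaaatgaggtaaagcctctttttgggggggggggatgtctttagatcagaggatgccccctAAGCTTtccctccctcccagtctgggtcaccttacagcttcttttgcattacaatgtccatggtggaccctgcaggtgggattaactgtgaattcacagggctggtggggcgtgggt
The site starts 117 bases before the annotated start. Nanog has 2 annotated promoter windows, of which the one with the lower coordinate is shown. The other is not described here. Of 32851 mouse promoter windows of the same 250 bases in the table, 2043 (6.22%) hold this site. The match describes the sequence only. Fragments are deposited with the distances that separate them and without coordinates, so positions below are in kb from the lowest-numbered fragment, FOR004. Which fragments hold the Nanog promoter or its neighbours, and which way the region runs along the chromosome, is unknown here.

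The region drew 658596 and 1468173 reads in NPC replicates 1 and 2, against 511316 and 233525 reads in ES replicates 1 and 2. These were 4.14% and 3.44% of all reads in NPCs and 4.76% and 2.84% in ES cells, which overlap. The 3 largest pairs of a library, all from the Oct4 and Klf4 regions, took between 19.7% and 57.1% of its reads. Of the reads outside the Oct4 region, those of the Nanog region were 9.03% and 8.24% in NPCs and 11.3% and 9.81% in ES cells, lower in both NPC libraries. The TMM-scaled library sizes used in the edgeR tests were 16238632 and 30798953 in NPCs and 13131506 and 8779547 in ES cells. Relative to these sizes the region's reads were higher in both NPC libraries, so the direction depends on the denominator. Pairs with 0 reads made up 24.8% and 31.2% of the region's pairs in NPCs and 16.5% and 18.4% in ES cells. Over all regions these shares were 18.93% and 22.22% in NPCs and 10.96% and 13.27% in ES cells. The NPC maps were thus emptier in the whole series as well as in this region, although they were deeper. Over the pairs of the region, log2 counts had a Pearson r of 0.833 between the NPC libraries, 0.911 between the ES libraries and 0.732 to 0.816 across cell types, as a description, since pairs share fragments and libraries. A count is an average over many cells, so a contact made in more cells and a contact made more often in the same cells cannot be told apart.

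More fragments of the region lost contact counts in NPCs than gained them, and 84 of 170 were called in neither direction. With the reads of each fragment summed over its pairs, 21 of 170 fragments (12.4%) rose in NPCs and 65 (38.2%) fell by edgeR's quasi-likelihood test at an adjusted p under 0.05 over all regions. Across all 1464 fragments of the 7 regions, 26.1% rose and 26.4% fell. The share of gaining fragments was thus below the background and the share of losing fragments above it. The median log2 fold change, NPC over ES, was −0.73 in the region and −0.06 over all fragments. With scaling by library totals instead of TMM factors, 7 fragments rose and 55 fell, and the medians were −0.85 and −0.21. With ES replicate 1 left out the counts were 13 and 24, with ES replicate 2 left out they were 12 and 27, and leaving out an NPC library gave 19 to 28 and 60 to 85.

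**Figure D1:**
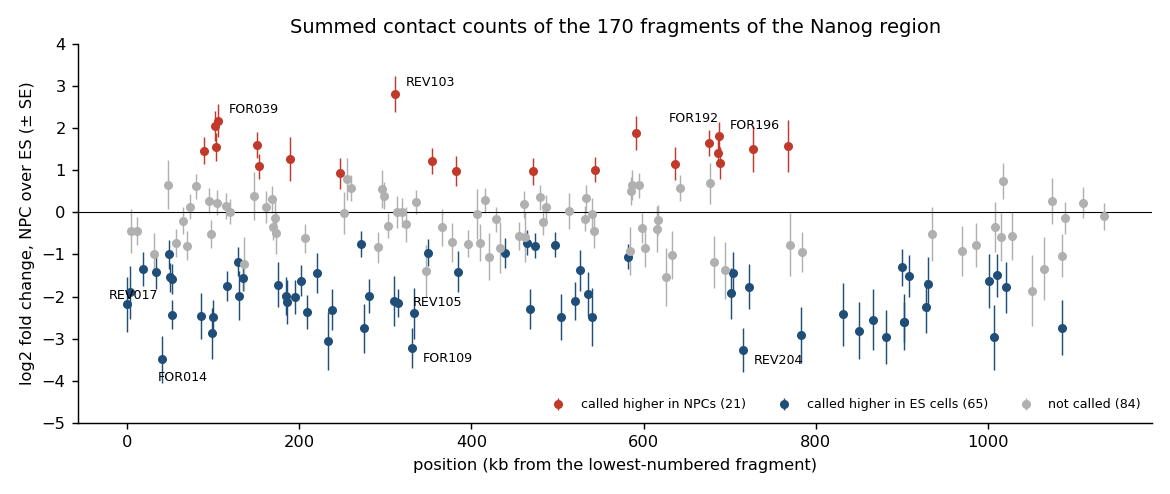
Log2 fold change of summed contact counts, NPC over ES, with its standard error for each of the 170 fragments against position in kb. The 21 fragments called higher in NPCs lie below 800 kb, while the 65 called higher in ES cells are spread along the whole region.

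The gaining fragments lay in the first 800 kb. Of 48 fragments in the first 200 kb, 7 rose and 20 fell. From 600 to 800 kb, 7 of 23 fragments rose and 5 fell. Beyond 800 kb, 0 of 29 fragments rose and 15 fell. Fragments of opposite direction could lie side by side. Among 50 neighbouring pairs of fragments that were both called, 33 fell together, 5 rose together and 12 went opposite ways. The log2 fold changes of the 169 neighbouring pairs correlated at r = 0.264, a description over fragments that share pairs and libraries. Fragments read by forward primers and those read by reverse primers both had more losses than gains, with 12 gains and 40 losses of 89 and with 9 gains and 25 losses of 81.

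The fragment FOR039, at 106 kb, took the largest part of the reads of the region in both NPC libraries. It held 25.9% and 25.9% of them in NPCs, against 6.87% and 5.95% in ES cells. The values lie within 1 percentage point of each other in each cell type and do not overlap between them. Its summed count was higher in NPCs at a log2 fold change of 2.18 ± 0.39 (SE, n = 2 libraries per cell type, edgeR adjusted p = 7.23e-05). Of its 81 partners, tested or not, 45 had more depth-scaled reads in both NPC libraries than in either ES library and 7 had fewer, against 12.7% and 37.7% of all 7209 pairs. Of the 66 pairs tested 14 were called, all of them higher in NPCs, against 3.23% of all tested pairs of the region. Without pairs under 10 kb, the difference in share between the cell types was 17.3 percentage points, against 19.5 with all pairs.

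**Figure D2:**
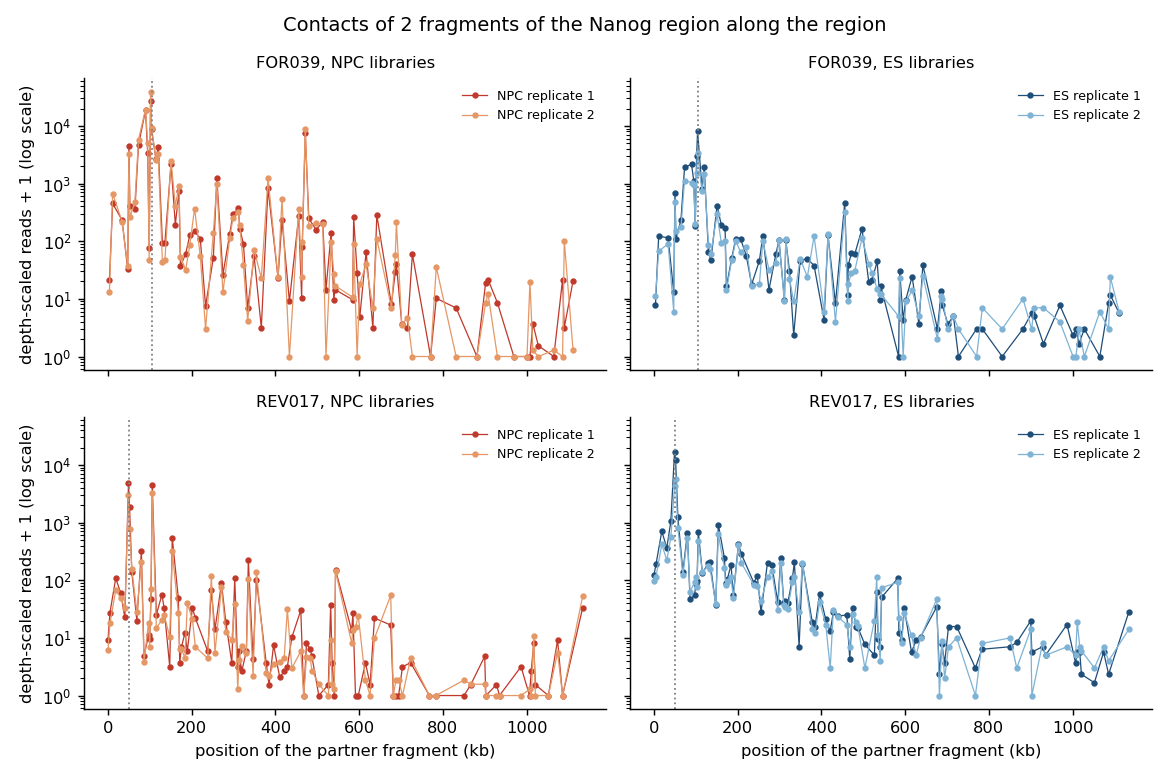
Depth-scaled reads plus 1 (log scale) of the fragments FOR039 and REV017 with each partner against the partner's position in kb, with the NPC libraries on the left and the ES libraries on the right; the dotted line marks the fragment itself. In both NPC libraries FOR039 has an isolated peak at 471 kb, where REV140 had 13909 and 31515 reads in NPCs against 90 and 27 in ES cells.

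The contact of FOR039 with REV140, 366 kb away at 471 kb, had 13909 and 31515 reads in NPCs and 90 and 27 reads in ES cells. It made up 8.14% and 8.29% of the reads of FOR039 in NPCs and 0.256% and 0.194% in ES cells. The fitted fold was 188 (log2 7.55 ± 0.85, edgeR adjusted p = 0.0225). It stayed called with each library left out in turn, where a cell type with 1 library is assumed to vary like the other, but not under an offset for the change of its fragments (4.21 on the log2 scale, adjusted p = 0.182; 9.59e-44 to 0.182 over 13 alternatives). Its log2 observed over expected, which subtracts the distance curve and the median effect of both fragments, was 4.74 and 4.38 in NPCs and −0.36 and −1.34 in ES cells. The contact therefore stood apart from the other contacts of the same fragments in NPCs, and lay at or below them in ES cells.

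Pairs of FOR039 with nearer partners were also called higher in NPCs, less firmly. The pair with REV036, 4.1 kb away, had 50217 and 137390 reads in NPCs and 4436 and 1526 in ES cells (log2 fold change 3.88 ± 0.81, edgeR adjusted p = 0.0367). The pair with REV029, 16.1 kb away, had 34467 and 67348 reads in NPCs and 3234 and 1033 in ES cells (3.57 ± 0.76, adjusted p = 0.0374). With REV017, 55.8 kb away, it had 8162 and 11463 reads in NPCs and 1022 and 476 in ES cells (2.73 ± 0.60, adjusted p = 0.0401). These pairs were named among called pairs without overlap between the cell types, so their separation is no finding. None of these 3 calls held without NPC replicate 2 (adjusted p = 0.171, 0.138 and 0.0765) or without ES replicate 2 (0.0672, 0.081 and 0.182), and those of REV036 without NPC replicate 1 (0.0673) and of REV017 without ES replicate 1 (0.0859) were lost too. With library totals REV029 and REV017 missed the threshold (adjusted p = 0.0516 and 0.0737). Under the replicate block the pairs with REV036 and REV029 missed the threshold (adjusted p = 0.0894 and 0.0637). The highest values over the alternatives, all under the offset, were 0.962 for REV036, 0.781 for REV029 and 0.198 for REV017. Not all near partners moved. With REV038, the partner 1.61 kb away, FOR039 had 16180 and 32188 reads in NPCs and 12058 and 3370 in ES cells, a fold change of 0.65 ± 0.69 on the log2 scale that was not called (adjusted p = 0.558).

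REV103, at 312 kb, gave the largest fragment-wide gain among the called fragments. It had 7010 and 11578 reads in NPCs and 673 and 386 in ES cells, which is 1.06% and 0.789% of the region's reads against 0.132% and 0.165%. Its log2 fold change was 2.82 ± 0.43 (edgeR adjusted p = 1.12e-05). Of its 89 partners, tested or not, 61 had more depth-scaled reads in both NPC libraries than in either ES library and 0 had fewer. The shares over all 7209 pairs of the region were 12.7% and 37.7%. Calls were made in 17 of 55 tested pairs, at distances between 1.42 and 823 kb. Over the tested pairs 3.23% were called higher in NPCs in the region and 4.9% in all regions. Many of the called pairs of REV103 had a mean under 10 reads in ES cells and entered the test through their NPC reads. The pair at 823 kb, with FOR339, had 39 and 75 reads in NPCs and 0 and 0 in ES cells. With FOR117, 43.1 kb away, there were 685 and 1666 reads in NPCs and 29 and 27 in ES cells (4.19 ± 0.55, adjusted p = 0.0225). With FOR060, 158 kb away, there were 462 and 1018 reads in NPCs and 16 and 15 in ES cells (4.4 ± 0.56, adjusted p = 0.0225). By contrast REV105, only 3.29 kb further along, fell. It had 3295 and 5259 reads in NPCs against 8140 and 6461 in ES cells (−2.15 ± 0.33, adjusted p = 1.43e-05).

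Further gains lay at 675 to 688 kb, though not in every fragment there. FOR192, at 675 kb, held 3.04% and 3.81% of the region's reads in NPCs and 1.29% and 1.18% in ES cells (log2 fold change 1.64 ± 0.31, edgeR adjusted p = 0.000114). FOR196 at 688 kb and REV195 at 686 kb rose by 1.82 ± 0.32 and 1.42 ± 0.31 on the same scale. REV193 at 677 kb (0.69 ± 0.49, edgeR adjusted p = 0.248) and FOR194 at 682 kb (−1.18 ± 0.61, adjusted p = 0.104) were not called. Of 63 tested pairs of FOR192, 14 were called, all higher in NPCs, with partners between 104 and 1110 kb. Over the tested pairs 3.23% were called higher in NPCs in the region and 4.9% in all regions. With REV038, 571 kb away at 104 kb, a fragment whose summed count was not called (0.23 ± 0.30), FOR192 had 343 and 467 reads in NPCs and 12 and 3 in ES cells (4.78 ± 0.69, adjusted p = 0.0236). With REV120, 293 kb away, it had 1681 and 3157 reads in NPCs and 20 and 25 in ES cells (5.57 ± 0.64, adjusted p = 0.0225). Both contacts stood above the distance curve and the fragment medians in NPCs, at a log2 observed over expected of 3.5 and 3.12 for REV038 and of 3.91 and 2.89 for REV120. In ES cells these values were 0.11 and −0.84 for REV038 and 0.03 and 0.38 for REV120. The pair of FOR192 with REV038 had a mean under 10 reads in ES cells and entered the test through its NPC reads. The same holds for the called pairs of FOR192 with REV103, REV107 and REV143.

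Of the 10 gaining fragments with the smallest p, the other members were REV036, REV059, FOR037, FOR172 and REV029. Their log2 fold changes ran between 1.46 for REV029 and 2.06 for REV036. These gains partly count the same pairs. In the NPC libraries the pair with FOR039 gave 50217 of 83232 and 137390 of 238751 reads of REV036. It also gave 34467 of 62934 and 67348 of 129952 reads of REV029. The pair of FOR037 with REV036 gave 18498 of 29423 and 63122 of 97570 NPC reads of FOR037. With library totals, FOR037, REV195 and REV029 kept their direction but missed the threshold (adjusted p = 0.0549, 0.0584 and 0.0831, the highest in each over 9 alternatives, with lowest values of 2.51e-08, 2.46e-08 and 5.42e-07).

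Among the losing fragments, REV017 at 50 kb had the most called pairs. It held 3.84% and 2.17% of the region's reads in NPCs and 11.5% and 7.69% in ES cells (log2 fold change −1.54 ± 0.35, edgeR adjusted p = 0.000793). Without NPC replicate 2 this call was lost (−1.20, adjusted p = 0.055, with a range of 3.91e-07 to 0.055 over 9 alternatives). Most reads of REV017 in ES cells came from its near partners FOR016 and FOR018, and neither pair was called. The pair with FOR016 had 8915 and 10357 reads in NPCs and 24804 and 4228 in ES cells. The pair with FOR018 had 3418 and 2756 reads in NPCs and 18356 and 5779 in ES cells. The share of REV017 without pairs under 10 kb was not computed. Of its 89 partners, 71 had fewer depth-scaled reads in both NPC libraries than in either ES library and 4 had more. The shares over all 7209 pairs of the region were 37.7% and 12.7%. Among 63 tested pairs 24 were called higher in ES cells and 1, the pair with FOR039, was called higher in NPCs. Over all tested pairs of the region these shares were 4.6% and 3.23%. With FOR014, 9.76 kb away, REV017 had 40 and 110 reads in NPCs and 1593 and 563 in ES cells (−4.93 ± 0.64, adjusted p = 0.0225). With FOR074, 152 kb away, it had 59 and 70 reads in NPCs and 632 and 413 in ES cells (−4.02 ± 0.55, adjusted p = 0.0225). REV017 thus lost contacts on both sides while its contact with FOR039 went the other way.

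FOR018, next to REV017 at 51.5 kb, had the smallest p of all losing fragments. It held 1.14% and 0.514% of the region's reads in NPCs and 5.22% and 4.73% in ES cells (−2.43 ± 0.35, edgeR adjusted p = 5.61e-06). Its pair with REV017 gave 18356 of its 26714 reads in ES replicate 1 and 5779 of 11040 in ES replicate 2. The sums of FOR018 and REV017 thus share many reads. FOR109, at 331 kb, had 971 and 905 reads in NPCs and 4539 and 3095 in ES cells (−3.22 ± 0.47, edgeR adjusted p = 6.72e-06). Of its 44 tested pairs, 13 were called higher in ES cells. REV204, at 715 kb, had 502 and 639 reads in NPCs and 3022 and 1650 in ES cells (−3.27 ± 0.53, edgeR adjusted p = 2.44e-05). Of its 28 tested pairs, 12 were called higher in ES cells. In these fragments each NPC library had fewer reads than either ES library, although the NPC libraries were deeper. Called higher in ES cells were 4.6% of all tested pairs of the region and 2.33% over all regions. The other named losses, FOR014, FOR034, FOR077, REV273, REV072, FOR096 and REV105, ranged from −1.99 in FOR096 to −3.49 in FOR014. FOR034, which fell by 2.49 on the log2 scale, lies 1.91 kb from REV036, which rose by 2.06. Without ES replicate 1 the fall of REV273 missed the threshold (adjusted p = 0.085, with a range of 5.3e-13 to 0.085 over 9 alternatives).

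At the level of single pairs, 99 of 3064 tested pairs of the region (3.23%) rose in NPCs and 141 (4.60%) fell by edgeR's quasi-likelihood test. Over all 46967 tested pairs of the series 4.9% rose and 2.33% fell, so gains were below the background and losses above it. The median log2 fold change was −0.32 in the region and 0.12 over all pairs. A pair entered the test at a mean of 10 reads or more, which left out 4145 pairs. After depth scaling both NPC libraries lay above both ES libraries in 24.4% of the tested pairs of the region and below both in 40%, against 31.3% and 30.9% over all regions. All adjusted p-values of called pairs lay between 0.0225 and 0.0498, close to the threshold. The counts needed both ES libraries: with ES replicate 1 left out they were 7 and 3, and 2 and 3 for ES replicate 2. The counts grew without an NPC library, where removal of NPC replicate 1 gave 582 and 1099, and removal of NPC replicate 2 gave 165 and 227. With library totals they were 42 and 149, a split further towards ES cells.

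Called pairs and called fragments overlapped, which is partly built in, since the sum of a fragment contains its pairs. Of the 99 pairs higher in NPCs, 91 held a fragment that was itself higher in NPCs, while 1012 of the 3064 tested pairs held such a fragment. Of the 141 pairs higher in ES cells, 140 held a fragment higher in ES cells, as did 1571 of the tested pairs. FOR039, REV103 and FOR192 were in 43 of the 99, and REV017, FOR109 and REV204 were in 48 of the 141. With an offset for the change of each fragment as a whole, edgeR called 0 pairs in either direction, and 947 had an unadjusted p under 0.05. That setting also called 0 pairs over all regions. No single contact was called beyond the change of its fragments, the pair FOR039 with REV140 included.

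The pairs higher in NPCs had a median distance of 206 kb, the pairs higher in ES cells 70.8 kb and all tested pairs 149 kb. Under 10 kb, 3 pairs (1.82%) rose and 21 (12.7%) fell of 165 tested, against 8.64% and 4.4% over all regions. At 300 kb and more, 37 pairs (4.91%) rose in NPCs and 6 (0.796%) fell of 754 tested, against 4.37% and 1.24% over all regions, so the long gains were near the background. Of those 37 pairs, 16 had a mean under 10 reads in ES cells and entered the test through their NPC reads, as did 294 of the 754 tested. Of the 6 that fell, 3 had a mean under 10 reads in NPCs, as did 77 of the 754. The filter used unscaled counts, so more of these pairs entered through the deeper NPC libraries. Median log2 fold changes were 3.31 among the pairs higher in NPCs, or 3.24 with the 2 pairs at 0 reads in both ES libraries set to a lower bound of 3 counts per ES library, and −3.44 among the pairs higher in ES cells.

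**Figure D3:**
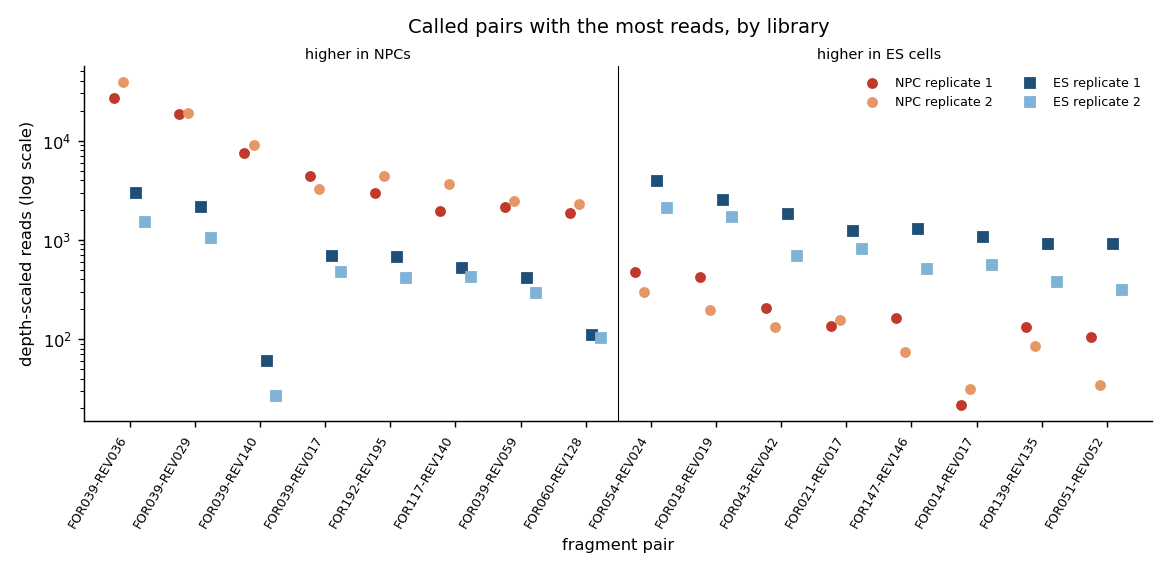
Depth-scaled reads (log scale) in each library for the 8 called pairs per direction with the most reads, with NPC libraries as circles and ES libraries as squares. All 16 pairs were chosen as called, so their separation is no finding; 5 of the 8 pairs higher in NPCs contain FOR039.

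Beside the FOR039 pairs, the gains with the most reads joined FOR192 with REV195, FOR117 with REV140 and FOR060 with REV128. The contact of FOR060 at 154 kb with REV128 at 416 kb had 3449 and 8036 reads in NPCs and 165 and 103 in ES cells (log2 fold change 4.28 ± 0.59, edgeR adjusted p = 0.0225). Its log2 observed over expected was 3.87 and 3.45 in NPCs and 0.44 and 0.42 in ES cells. Under the offset for the change of its fragments this pair was not called (log2 fold change 2.08, edgeR adjusted p = 0.193). FOR117 with REV140 had 3598 and 12790 reads in NPCs and 773 and 419 in ES cells (2.58 ± 0.61, adjusted p = 0.0456). Its log2 observed over expected, in contrast, was 1.59 and 1.47 in NPCs and 1.17 and 1.01 in ES cells.

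The losses with the most reads were mostly short, with 7 of the 8 spanning between 0.894 and 12.0 kb. The exception joined FOR054 at 134 kb with REV024 at 72.9 kb, with 878 and 1052 reads in NPCs and 5800 and 2100 in ES cells (−2.95 ± 0.64, edgeR adjusted p = 0.0384). Its log2 observed over expected was 3.02 and 2.22 in NPCs and 5.72 and 5.32 in ES cells, above 0 in all 4 libraries and highest in ES cells. FOR018 with REV019, 0.894 kb apart, had 789 and 687 reads in NPCs and 3763 and 1702 in ES cells (−2.76 ± 0.64, adjusted p = 0.0434).

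Other long contacts were strong in both cell types and were not called. The highest, between FOR106 at 319 kb and REV174 at 595 kb, had 10155 and 10548 reads in NPCs and 3734 and 3809 in ES cells (log2 fold change 0.43 ± 0.63, edgeR adjusted p = 0.677). Its log2 observed over expected was 9.69 and 9.16 in NPCs and 9.25 and 9.50 in ES cells. Whether this count is a chromatin contact was not tested. This single partner took 82.1% and 81.5% of the reads of FOR106 in NPCs and 69.5% and 77.0% in ES cells. FOR339 with REV118, 768 kb apart, had 1021 and 2077 reads in NPCs and 657 and 987 in ES cells, with a log2 observed over expected of 7.54 and 7.24 in NPCs and 7.08 and 8.18 in ES cells. FOR100 with REV197, 386 kb apart, had 426 and 867 reads in NPCs and 355 and 361 in ES cells, with values of 5.44 and 6.19 in NPCs and 5.50 and 5.82 in ES cells. The remaining 5 of the 8 highest such contacts joined FOR093 with REV186, FOR163 with REV128, FOR296 with REV195, FOR170 with REV061 and FOR131 with REV160. Their lowest library values ran from 2.35 for FOR131 with REV160 to 3.13 for FOR093 with REV186. REV128 was therefore an end of a contact seen in both cell types, with FOR163, and of the NPC gain with FOR060.

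In the authors' deposited table, which gives a p-value per pair and library against their own predicted signal, 75 and 59 pairs of the region (1.04% and 0.818%) were under 0.01 in NPCs and 129 and 137 (1.79% and 1.9%) in ES cells. Over all pairs of the authors' deposited table the shares were 1.33% and 1.21% in NPCs and 1.55% and 1.68% in ES cells. In the authors' deposited table, 17 pairs were under 0.01 in both NPC libraries, 27 in both ES libraries and 6 in all 4. Those 6 pairs by the authors' deposited table are FOR106 with REV174, FOR339 with REV118, FOR100 with REV197, FOR093 with REV186, FOR163 with REV128 and FOR131 with REV160. FOR039 with REV140 had a p-value of 1e-05, the lowest that the authors' deposited table gives, in both NPC libraries, against 0.676 and 0.849 in ES cells.

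Averaging neighbouring pairs in windows of 60 by 60 kb, after the effect of distance and of each fragment was removed, gave a coarser map. Of 188 windows of the region, 3 (1.60%) rose in NPCs and 8 (4.26%) fell by limma at an adjusted p under 0.05. Over all 1474 windows 2.78% rose and 4.61% fell, so neither share stood above the background. Windows of 40 kb, the authors' ratio in place of the residuals, and the removal of either ES library each left 0 and 0 by limma, with 77, 40, 15 and 18 at an unadjusted p under 0.05. Removing NPC replicate 1 gave 22 and 54, and removing NPC replicate 2 gave 17 and 32.

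**Figure D4:**
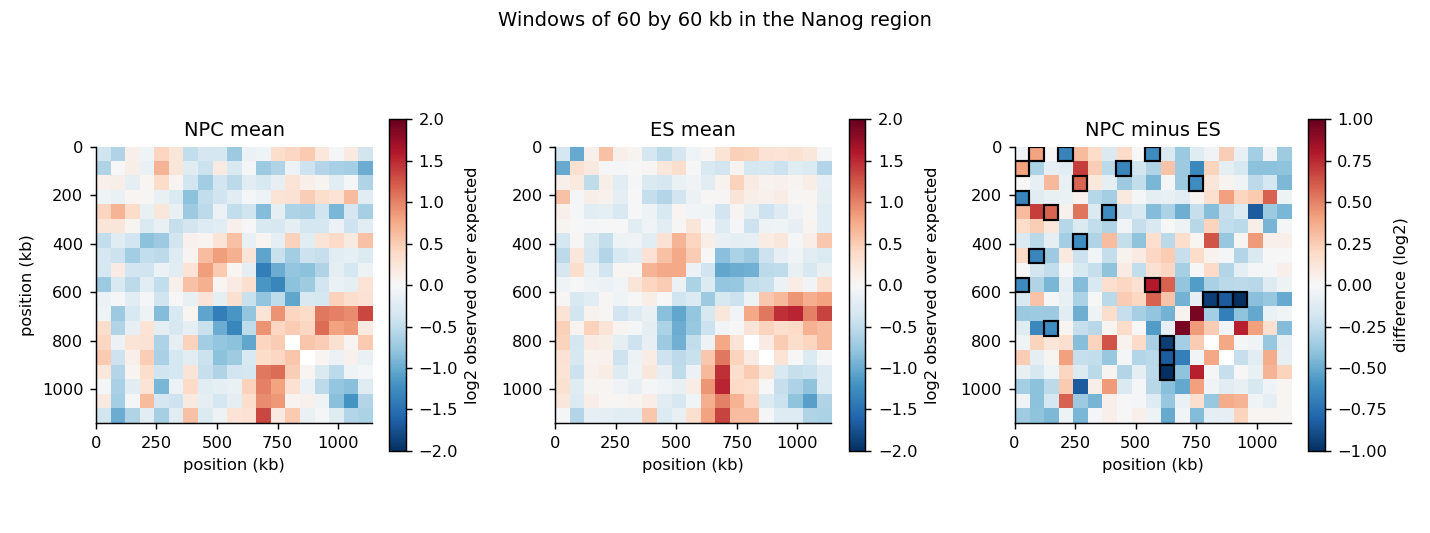
Mean log2 observed over expected in windows of 60 by 60 kb for the NPC mean, the ES mean and the difference NPC minus ES, with both axes in kb along the region. Black outlines mark the 11 called windows, of which 3 lie side by side between 600–660 kb and 780–960 kb and are lower in NPCs, at differences of −0.94, −0.83 and −1.0.

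Of the 8 windows that fell, 3 adjoined each other and joined 600–660 kb with the stretch beyond 780 kb. Between 600–660 kb and 900–960 kb the log2 observed over expected was −0.27 and −0.42 in NPCs and 0.80 and 0.52 in ES cells, a difference of −1.0 ± 0.16 (limma adjusted p = 0.0383). Between 600–660 kb and 780–840 kb it was −1.06 and −1.02 in NPCs and −0.04 and −0.17 in ES cells (−0.94 ± 0.19, adjusted p = 0.0482). Between 600–660 kb and 840–900 kb it was −0.27 and −0.33 in NPCs and 0.56 and 0.51 in ES cells (−0.83 ± 0.15, adjusted p = 0.045). These 3 windows share the fragments of 600–660 kb and are not independent of each other. All 11 called windows missed the threshold under the replicate block and with the authors' ratio.

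Of the 19 windows that hold 0–60 kb, 3 were called. Between 0–60 kb and 180–240 kb the value was −0.07 and −0.09 in NPCs and 0.62 and 0.56 in ES cells (−0.67 ± 0.09, limma adjusted p = 0.0298). Between 0–60 kb and 540–600 kb it was −0.60 and −0.83 in NPCs and −0.16 and 0.01 in ES cells (−0.64 ± 0.12, adjusted p = 0.0469). With 60–120 kb, the next window along, it was −0.61 and −0.61 in NPCs and −1.08 and −0.95 in ES cells (0.41 ± 0.08, adjusted p = 0.0482). The other 2 gains joined 120–180 kb with 240–300 kb (0.58 ± 0.09) and lay within 540–600 kb (0.80 ± 0.15). The window of 60–120 kb with 420–480 kb fell (−0.65 ± 0.13). It holds the pair of FOR039 with REV140, which was called higher in NPCs. With the distance correction alone, in which fragment effects stay in, the window's difference was 0.16.

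To describe boundaries, residuals were averaged separately for pairs that span a position and for pairs that lie wholly to its left or right, within 100 kb, and the spanning mean was subtracted. A high value means that contacts crossing the position were fewer, relative to distance and fragment, than those beside it. At 27 of 85 positions (31.8%) both NPC libraries lay above both ES libraries, at 18 (21.2%) they lay below both, and at 40 they overlapped. In the other 6 regions the shares were 46.2% and 32.6% of 565 positions, and the difference between regions was not tested. Neighbouring positions share pairs and are not independent, and exact permutation of 2 against 2 libraries gives no p under 0.3333, so no position was called.

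**Figure D5:**
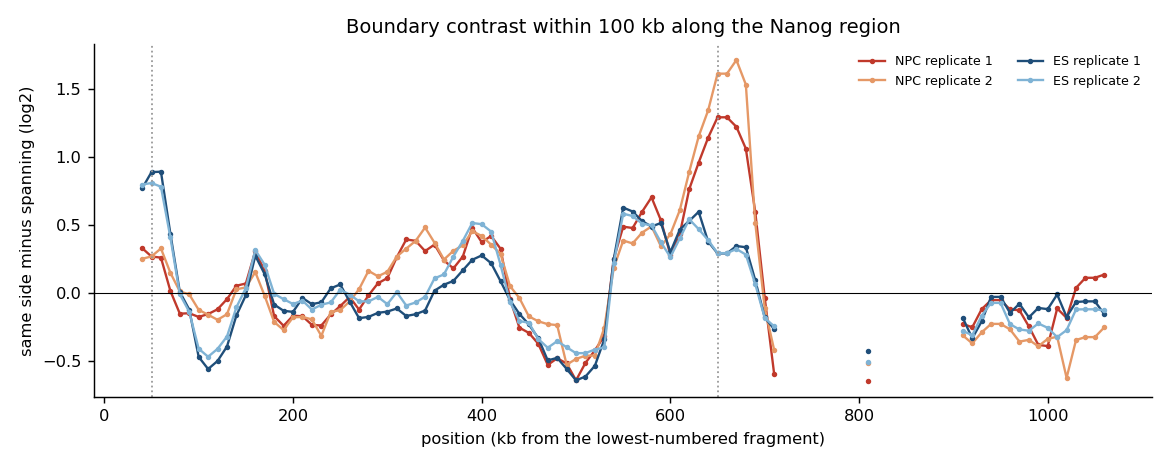
Boundary contrast (log2, same side minus spanning, within 100 kb) in each of the 4 libraries against position in kb, with dotted lines at 50 and 650 kb; positions with too few pairs are left blank. The NPC libraries stand at 1.29 and 1.61 at 650 kb, above the ES libraries at 0.292 and 0.294, and at 0.269 and 0.270 at 50 kb, below the ES libraries at 0.888 and 0.808.

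The largest gain in contrast was at 650 kb, with 1.29 and 1.61 in NPCs and 0.292 and 0.294 in ES cells, a difference of 1.16. The values at 660 kb were the same, and at 670 kb, the highest NPC maximum, they were 1.22 and 1.71 in NPCs and 0.346 and 0.324 in ES cells. These positions lie between REV186 at 642 kb and FOR192 at 675 kb, where no fragment was assayed. With pairs taken within 150 kb the difference at 650 kb was 0.618, and without the gaining fragments FOR192, FOR196 and REV195 it was 1.39. The largest loss was at 50 kb, the position of REV017, with 0.269 and 0.270 in NPCs and 0.888 and 0.808 in ES cells, a difference of −0.58. Within 150 kb that difference was −0.24. Other maxima differed less. At 550 kb the contrast was 0.488 and 0.386 in NPCs and 0.628 and 0.583 in ES cells, and at 580 kb it was 0.703 and 0.490 in NPCs and 0.489 and 0.498 in ES cells, where the cell types overlapped.

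Counts fell less steeply with distance in NPCs. Fitted between 10 kb and 1 Mb on log10 scales, the slope of depth-scaled counts against distance was −0.910 and −0.824 in NPCs and −0.995 and −0.979 in ES cells, a difference of 0.12 (two-sided exact permutation p = 0.3333, the smallest that 2 against 2 libraries allow). Without the fragment FOR039 the difference was 0.126. In the other 5 large regions the slope was steeper in NPCs, with differences between −0.03 in the Klf4 region and −0.14 in the Olig1-Olig2 region, and the difference between regions was not tested. The share of the region's reads at 300 to 500 kb was 6.86% and 6.44% in NPCs and 4.01% and 6.00% in ES cells. Beyond 500 kb it was 2.12% and 1.93% in NPCs and 1.5% and 2.62% in ES cells, where the groups overlapped (two-sided exact permutation p = 1.0). At the shortest distances, under 10 kb, the share was 34.3% and 38.3% in NPCs and 42.7% and 27.3% in ES cells, so that the spread between the ES libraries covered the NPC values.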

How the data were processed

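Per the labels' protocols, 3C templates were cut with HindIII and 5C libraries were made with alternating forward and reverse primers. Bowtie is named, per the submitters' processing notes; other steps are not given in the sources used here. The authors deposited raw counts per pair and library, which were used as they stand, a ratio of observed to predicted signal, used as an alternative, and a p-value per pair, used only where named. Distances in the deposited table gave fragment positions, with a largest misfit of 0.554 bp in this region. In all, 12 per-sample columns were not used, and the CTCF and Smc1 peak lists were not used because fragments carry no coordinates. Total counts were 15899829 and 42673906 in NPCs and 10742380 and 8236666 in ES cells.

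Pairs and summed fragments were tested in edgeR 4.0.16 (R 4.3.3), by its quasi-likelihood test with TMM factors and a mean of at least 10 reads, on the whole table, with Benjamini-Hochberg adjustment over it. Results under 0.05 were called, and fold changes are NPC over ES. Depth-scaled reads are counts scaled to the smallest TMM-scaled library. Observed over expected is log2(count + 1) from which a lowess fit on log10 distance (span of 0.3, statsmodels) and fragment medians were subtracted in 5 rounds; it was averaged in windows with at least 4 pairs and tested with limma 3.58.1. Boundaries needed at least 10 pairs on each side of the comparison. The scripts were tested on simulated data. PCR copies are not independent molecules, so bounds against 0 reads reflect counting error alone.

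Named were the 8 called pairs per direction with the most scaled reads and no overlap, the 8 pairs at 50 kb or more with the highest lowest-library observed over expected, up to 10 called fragments per direction by p, the 3 fragments with most called pairs per direction, up to 6 called windows per direction, and boundary maxima. The neighbouring fragments that are compared, and FOR039 with REV038, were picked after their values were seen. The region, lists and tests were chosen with earlier results of these data known. Contacts of named genes were planned and not run, since fragments were not placed on the chromosome. Alternatives were other scalings, filters, DESeq2 1.42.0, limma on log2(count + 1), offsets, window and boundary sizes, blocks and the removal of each library.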

Additional observations from a re-analysis of the deposited data

How the results depend on the processing

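Counts are given as higher in NPCs, then higher in ES cells. For pairs (99 and 141), DESeq2 size factors gave 102 and 147, library totals 42 and 149, a mean of at least 50 reads 104 and 268, no count filter 269 and 315, DESeq2 226 and 360, limma 165 and 305, and the fragment-wide offset 0 and 0. The cause was not tested. Leaving out a library gave 2 to 582 and 3 to 1099. Over all pairs the median log2 fold change was −0.29 with library totals and 0.12 with TMM factors, while the region lay 0.41 and 0.45 below it. For fragments (21 and 65), library totals gave 7 and 55, DESeq2 21 and 68, and leaving out a library 12 to 28 and 24 to 85. For windows (3 and 8), 40 kb windows and the authors' ratio gave 0 and 0, the distance correction alone 25 and 10, a pseudocount of 5 gave 8 and 5, and leaving out a library 0 to 22 and 0 to 54.

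The replicate numbers were not shown to pair the libraries: deviations of same-numbered libraries correlated at −0.161. The replicate block gave 124 and 236 pairs, 17 and 57 fragments, and 0 and 0 windows (38 at an unadjusted limma p under 0.05). With crossed numbers, a pairing added after seeing the data, there were 148 and 210 pairs, 21 and 73 fragments, and 4 and 5 windows.

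Under the fragment-wide offset 3 named pairs reversed: FOR192 with REV195 at −0.38, FOR117 with REV140 at −0.82 and FOR039 with REV059 at −0.68. With the distance correction alone 2 named windows reversed, 60–120 with 420–480 kb at 0.16 and 120–180 with 720–780 kb at 0.18. Named fragments kept their direction in every alternative run, and 5 of these results missed the threshold. Of the results for named pairs, 145 kept their side of the threshold and 60 missed it. At 50 kb the boundary difference of −0.58 was −0.24 within 150 kb, −0.68 with residuals scaled to equal spread and −0.68 with the authors' ratio. At 650 kb the 1.16 became 0.62, 0.70 and 1.36 in these settings, and 1.39 without FOR192, FOR196 and REV195, a choice made after seeing the data. The slope difference of 0.12 lay between 0.08 and 0.16 in all settings run. The share beyond 300 kb differed by 1.61 percentage points, with overlapping cell types (exact permutation p = 0.6667), by 0.856 without FOR039 and by −0.04 beyond 500 kb, and the difference in FOR039's share was 17.3 without pairs under 10 kb. Depth limits the longest distances: beyond 500 kb, 50.6% and 57.8% of pairs had 0 reads in NPCs and 37.2% and 40.1% in ES cells.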
